A study of Homo sapiens with 30 samples.

Results

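The collagen genes were taken by their symbols: COL, a number, A and a number, without pseudogenes and antisense genes. This gave 44 genes listed in each of the 3 deposited count tables, which held 60612 genes for the RBPMS knockouts and 56303 genes each for ANKRD10 overexpression and knockdown. Of the 44 genes, 11 code for fibrillar collagens, 9 for basement membrane collagens (COL4A1 to COL4A6, COL7A1, COL15A1 and COL18A1) and 24 for other types. The cells were 5637, an established human bladder carcinoma line, and poly(A) RNA was sequenced in 30 libraries, 3 for each of 10 groups. The study addressed the splicing of ANKRD10 pre-mRNA by the RNA-binding protein RBPMS and the effect of the ANKRD10-2 isoform on MYC target genes.

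In the first table, KO1 and KO2 are RBPMS knockout cells made with different sgRNAs, and WT1 and WT2 are labelled wild type, 1 control group for each knockout. The study describes single-clone expansion of the knockout cells, so an effect of RBPMS loss and a property of the expanded clone cannot be told apart. In the second table, cells overexpressed the isoform ANKRD10-1 or ANKRD10-2 or carried Vector only. In the third, cells were transfected with siANKRD10-1, siANKRD10-2 or the control siRNA siNC. The labels name 5637 cells for all of them. The study describes ANKRD10-1 knockdown and ANKRD10-2 overexpression in 5637 cells. It places ANKRD10-2 knockdown and ANKRD10-1 overexpression in RBPMS knockout cells. Which background these libraries have is not settled by the labels. If the background differed within a table, isoform and RBPMS genotype could not be told apart between its groups. The labels do not state whether the 3 libraries of a group came from separate cultures, so the tests measure the spread between these libraries, which may be technical.

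Collagens are secreted or membrane proteins of the extracellular matrix whose chains wind into a triple helix. Fibrillar collagens form the fibrils of connective tissue, type IV collagen forms the network of the basement membrane on which epithelial cells such as urothelium rest, type VII anchors that membrane to the stroma, and type XVII is a transmembrane collagen of hemidesmosomes. Type VI forms beaded microfilaments, type VIII forms short-chain networks, and types IX, XII and XVI belong to the fibril-associated collagens. Chains of 1 type are often encoded by gene pairs, and the type IV genes lie head to head, transcribed in opposite directions from a shared start region.

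The start regions of the genes on which the results turn are shown first, as windows from 250 bases before to 50 bases after the RefSeq start of transcription (GRCh38.p14), read 5′ to 3′ on the strand of the gene. COL4A2 and COL4A5 stand for the head-to-head pairs, COL6A2 had the largest fold change among the collagen genes that passed against a control, COL12A1 had the highest level in the RBPMS control cells, and COL7A1 was higher in both knockouts. Capitals mark matches on either strand to 4 short motifs: CACGTG, the E-box that MYC and MAX are known to bind, GGGCGG, known as the GC box, the CCAAT box, spelled as its name, and TATAAA, a form of the TATA sequence.
COL4A2 (chr13:110307034-110307333, plus strand): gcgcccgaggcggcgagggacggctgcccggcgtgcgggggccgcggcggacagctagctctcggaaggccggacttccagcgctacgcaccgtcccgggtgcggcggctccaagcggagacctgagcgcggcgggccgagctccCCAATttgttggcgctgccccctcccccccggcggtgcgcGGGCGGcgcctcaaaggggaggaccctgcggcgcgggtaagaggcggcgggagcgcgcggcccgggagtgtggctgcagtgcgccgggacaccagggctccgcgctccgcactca
COL4A5 (chrX:108439588-108439887, plus strand): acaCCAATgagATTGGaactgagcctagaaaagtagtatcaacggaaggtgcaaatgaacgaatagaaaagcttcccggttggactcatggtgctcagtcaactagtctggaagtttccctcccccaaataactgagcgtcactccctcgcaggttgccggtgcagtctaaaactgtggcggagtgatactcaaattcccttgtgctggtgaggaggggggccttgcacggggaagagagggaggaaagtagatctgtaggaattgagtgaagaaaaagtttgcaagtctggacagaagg
COL6A2 (chr21:46097862-46098161, plus strand): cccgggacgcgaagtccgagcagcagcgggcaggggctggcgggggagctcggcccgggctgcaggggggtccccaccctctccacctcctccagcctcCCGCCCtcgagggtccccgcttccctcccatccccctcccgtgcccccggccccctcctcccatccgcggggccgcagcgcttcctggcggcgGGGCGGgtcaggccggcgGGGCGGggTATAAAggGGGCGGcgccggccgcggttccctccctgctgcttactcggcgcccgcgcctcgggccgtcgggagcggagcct
COL12A1 (chr6:75206004-75206303, minus strand): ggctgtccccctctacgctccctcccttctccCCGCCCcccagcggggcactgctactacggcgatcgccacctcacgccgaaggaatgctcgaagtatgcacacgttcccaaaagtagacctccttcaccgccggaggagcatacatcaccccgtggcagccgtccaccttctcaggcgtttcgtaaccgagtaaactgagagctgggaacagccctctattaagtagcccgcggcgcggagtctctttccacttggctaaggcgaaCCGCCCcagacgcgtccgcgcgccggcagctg
COL7A1 (chr3:48595280-48595579, minus strand): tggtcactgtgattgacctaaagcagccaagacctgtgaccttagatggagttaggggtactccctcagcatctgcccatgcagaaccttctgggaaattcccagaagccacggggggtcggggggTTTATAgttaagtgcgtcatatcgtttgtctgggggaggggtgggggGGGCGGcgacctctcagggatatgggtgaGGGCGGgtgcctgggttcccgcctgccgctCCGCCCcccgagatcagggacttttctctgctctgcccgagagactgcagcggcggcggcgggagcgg

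The window of COL4A1 shares 226 bases with that of COL4A2, the window of COL4A6 shares 121 bases with that of COL4A5, and those of COL4A3 and COL4A4 share 82 bases. The table of windows held 44 windows for 32 of the 44 collagen genes. None of these 44 windows held CACGTG, against 7.26% of all 35116 windows. GGGCGG was found in 54.5% of the collagen windows and 45.0% of all windows, CCAAT in 31.8% and 34.6%, and TATAAA in 18.2% and 11.5%. Matches could overlap, and a window was counted for a motif if it held at least 1 match. A match or its lack describes only the letters of these windows. The COL6A2 window, with 4 GC boxes and 1 TATA box, had 79.3% G and C bases, whereas the window of COL4A5 had 49.3%.

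Total counts per library ranged from 44593108 to 69723937 in the knockout table, from 31736779 to 47493499 in the overexpression table and from 28511029 to 32784584 in the knockdown table. Levels are given as normalized CPM, counts scaled to library size (CPM) after TMM scaling over all libraries of a table, and differences as log2 fold changes with standard errors from edgeR's quasi-likelihood test, where a gene passed at an adjusted p-value under 0.05. The share of even numbers among counts of 1 to 20 was 46.3 to 47.9% in the knockout table, 67.4 to 68.4% in the overexpression table and 70.1 to 75.9% in the knockdown table, and levels were tested only within a table. RBPMS measured 14.3 to 15.2 normalized CPM in KO1 and 39.0 to 42.2 in WT1 (log2 fold change −1.44 ± 0.07, edgeR adjusted p = 1.246e-07), and 19.0 to 21.3 in KO2 and 42.4 to 44.2 in WT2 (−1.09 ± 0.06, edgeR adjusted p = 5.074e-08). RBPMS transcripts were thus counted in all knockout libraries, below all of their controls. It measured 3.57 to 6.28 in the overexpression libraries and 4.53 to 5.87 in the knockdown libraries. ANKRD10 measured 81.8 to 90.1 in KO1 and 190 to 199 in WT1, and 108 to 116 in KO2 and 187 to 197 in WT2. It rose by 0.67 on the log2 scale with ANKRD10-1 and by 0.41 with ANKRD10-2 overexpression, and fell by 0.24 with siANKRD10-1 and 0.25 with siANKRD10-2 (all passed, that of siANKRD10-1 not without siANKRD10-1 replicate 3 or siNC replicate 1). Counts per gene do not separate the isoforms.

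All 7 epithelial markers (EPCAM, CDH1 and keratins) had a mean of at least 1 normalized CPM in every group. Of the 6 urothelial markers, 2 or 3 reached that level, and UPK1A or UPK3A was at 0 in at least 1 library group of each table. Of the leukocyte markers, PTPRC and CD3E were at 0 in the knockout table, and CD68 measured 0.0741 to 0.25 in WT1, 0.251 to 0.981 in KO1, 0.0359 to 0.0892 in WT2 and 0.777 to 1.59 in KO2, where it rose. CD68 was higher in the other control groups, at 21.8 to 23.7 in Vector and 12.2 to 14.0 in siNC. The 7 fibroblast markers summed to 3.56 to 4.80 in KO1, 17.0 to 19.5 in WT1, 25.7 to 27.6 in KO2 and 18.3 to 20.4 in WT2. In a bulk library, fewer cells of a type and less RNA per cell cannot be told apart.

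In control cells, most collagen counts came from a few genes. Per kilobase of exon, COL12A1 had the highest level of all 44 genes in WT1 (163 ± 3.57 normalized CPM per kb, SD, n = 3), followed by COL4A2 (96.6 ± 4.77), COL4A1 (50.3 ± 3.29), COL17A1 (32.8 ± 1.48) and COL7A1 (17.1 ± 1.70). The ranges of these neighbours did not overlap. In the Vector libraries the order was COL4A2 (151 ± 5.27), COL7A1 (126 ± 1.62), COL17A1 (69.2 ± 1.65), COL4A1 (59.3 ± 0.31) and COL12A1 (56.6 ± 4.04), and the ranges of COL4A1 and COL12A1 overlapped. In siNC it was COL12A1 (93.4 ± 8.96), COL4A2 (80.9 ± 4.87), COL7A1 (65.7 ± 3.85), COL4A1 (39.0 ± 3.40) and COL17A1 (28.9 ± 0.59), with the lowest COL12A1 library below the highest COL4A2 library. The tables were made separately, so these orders are set side by side and were not tested against each other. The fibrillar genes gave 2.23 to 2.46% of all collagen CPM in WT1, 4.53 to 4.65% in Vector and 3.36 to 3.45% in siNC.

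At the other end, 10 genes passed the filter on low counts in no comparison with a control (COL2A1, COL6A5, COL6A6, COL9A1, COL10A1, COL20A1, COL21A1, COL22A1, COL23A1 and COL28A1), and the highest mean of any of them in a group was 0.339 normalized CPM. The remaining 34 were tested in at least 1 of the 6 comparisons with a control, 22 in all 6. A total of 22 genes passed the test in at least 1. COL9A1, COL20A1, COL22A1 and COL23A1 had 0 counts in all 12 libraries of the knockout table.

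**Figure D1:**
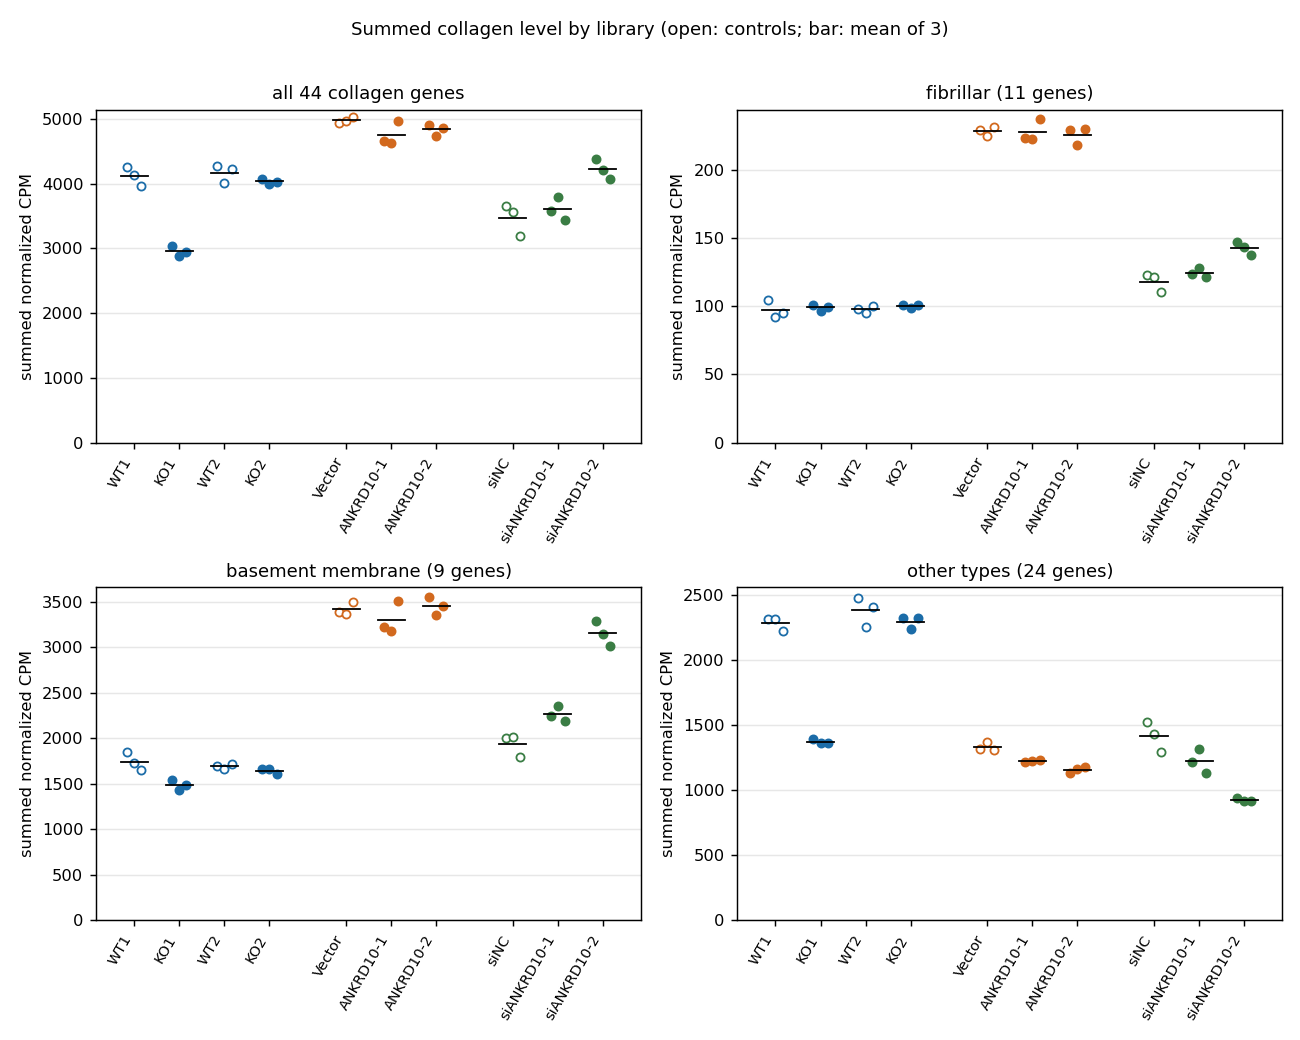
Summed normalized CPM (y axis, from 0) of all collagen genes and of the 3 classes in each library, by group (x axis). Open points are controls and bars are means of 3 libraries. The KO1 libraries sum to 2889 to 3039, below the 3965 to 4263 of WT1, and the basement membrane sum is 3015 to 3294 with siANKRD10-2 and 1794 to 2010 with siNC.

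Loss of RBPMS went with different collagen profiles in the 2 knockouts. In KO1, the type VI genes COL6A1 and COL6A2 rose, while COL12A1 and most basement membrane genes fell. In KO2, COL6A1, COL6A2 and COL8A1 rose and COL12A1 did not pass the test. Summed over the 44 genes, KO1 had 2958 ± 75.8 normalized CPM (SD, n = 3) and WT1 4120 ± 149, whereas KO2 had 4038 ± 38.7 and WT2 4171 ± 138.

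In KO1, 14 of the 23 collagen genes tested passed (4 higher and 10 lower), where 36.1% of all genes tested passed (17.9% higher and 18.2% lower). Their median log2 fold change was −0.40, with 0.00 for all genes. At a change of 1 or more on the log2 scale, 3 collagen genes passed, where 6.43% of all genes did. Of the 7 basement membrane genes tested, 1 rose and 5 fell; of 4 fibrillar genes, 1 rose and 1 fell; and of 12 genes of other types, 2 rose and 4 fell. In KO2, 9 of 24 genes passed (6 higher and 3 lower), where 38.5% of all genes passed (19.3% higher and 19.2% lower), and the share of 37.5% was near that background. The count of lower genes was 5 without WT2 replicate 2 and with all 6 WT libraries as controls. The median of the collagen genes was 0.05, with −0.02 for all genes, and 2 collagen genes passed with a log2 fold change of at least 1, where 5.99% of all genes did. None of the 4 fibrillar genes tested passed in KO2 with edgeR, and 0 had an unadjusted p under 0.05.

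COL6A2, a chain of type VI collagen, was near the detection limit in WT1 and WT2, at 0.083 and 0.080 normalized CPM per kb. Per kb it had 3.14 in Vector and 1.11 in siNC, which were not tested against these. It measured 0.269, 0.705 and 0.371 normalized CPM in WT1 (14, 38 and 25 counts) and 5.28, 4.54 and 6.02 in KO1. In WT2 it measured 0.491, 0.557 and 0.240, and in KO2 2.54, 1.91 and 1.66. All 6 knockout libraries lay above all 6 control libraries, those of KO1 above those of KO2. COL6A2 rose by 3.56 ± 0.32 on the log2 scale in KO1 (edgeR adjusted p = 1.218e-05) and by 2.25 ± 0.36 in KO2 (edgeR adjusted p = 0.000372). The difference between the knockouts, 1.31 ± 0.49, did not pass (edgeR adjusted p = 0.06567). It passed with DESeq2's test (1.30, DESeq2 adjusted p = 0.03182) and without WT1 replicate 2 (1.77) or WT2 replicate 3 (1.60).

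COL6A1, its partner chain, lies 93.0 kb away on the same strand (COL6A1 chr21:45981737-46005050, COL6A2 chr21:46098097-46132849, GRCh38, plus strand). It measured 7.12, 6.10 and 7.60 in WT1 and 18.0, 16.8 and 19.1 in KO1. In WT2 it measured 8.09, 7.74 and 7.63, and in KO2 15.2, 14.8 and 15.4. The knockout libraries were again above all controls without overlap, by 1.37 ± 0.11 on the log2 scale in KO1 (edgeR adjusted p = 5.143e-06) and 0.95 ± 0.09 in KO2 (edgeR adjusted p = 5.271e-06). COL6A3, the third chain of the common type VI heterotrimer, was too low to be tested in KO1 and did not pass in KO2. The 13 genes other than collagens tested within 1 Mb of COL6A2 had log2 fold changes of −0.87 to 1.07 in KO1 (median −0.52) and −0.41 to 0.59 in KO2 (median 0.27), all below those of COL6A2.

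COL8A1, a chain of the short-chain type VIII collagen, moved in opposite directions. It measured 0.672, 1.26 and 0.964 in WT1 and 0.332, 0.137 and 0.424 in KO1. In WT2 it measured 1.03, 0.521 and 0.707, and in KO2 4.12, 3.89 and 4.44. The KO1 libraries lay below and the KO2 libraries above all their controls. The log2 fold change was −1.68 ± 0.48 in KO1 (edgeR adjusted p = 0.0187) and 2.45 ± 0.26 in KO2 (edgeR adjusted p = 1.292e-05), and their difference, −4.13 ± 0.50, passed (edgeR adjusted p = 1.672e-05). The KO1 value rests on 6 to 22 counts per library and did not pass without WT1 replicate 2 (−1.44) or replicate 3 (−1.68). COL8A2, the partner chain, had −0.89 ± 0.30 in KO1 (edgeR adjusted p = 0.03991) and 0.44 ± 0.20 in KO2, which did not pass. Its KO1 call was lost without WT1 replicate 1, 2 or 3 or KO1 replicate 2 or 3, at −0.95 to −0.68, and with all 6 WT libraries as controls (−0.69).

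COL12A1, a fibril-associated collagen, was the largest contributor to the collagen sum in WT1 and WT2. It measured 2057, 2068 and 1986 normalized CPM in WT1 and 1179, 1162 and 1151 in KO1. In WT2 it measured 2243, 2016 and 2167, and in KO2 2118, 2035 and 2110. KO1 lay apart from all other libraries, and KO2 overlapped WT2. The log2 fold change was −0.81 ± 0.04 in KO1 (edgeR adjusted p = 1.246e-07) and −0.04 ± 0.04 in KO2, and the difference of −0.77 ± 0.05 passed (edgeR adjusted p = 3.537e-08). COL12A1 gave 48.3 to 50.1% of all collagen CPM in WT1 and 38.8 to 40.2% in KO1, with 50.2 to 52.5% in WT2 and 50.9 to 52.3% in KO2.

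Among the basement membrane genes, COL4A5 had the largest change in KO1 of those that passed. It measured 136, 121 and 126 in WT1 and 78.8, 81.8 and 75.6 in KO1, and 122, 116 and 126 in WT2 and 128, 126 and 115 in KO2. KO1 was below all controls and KO2 overlapped its own. The log2 fold change was −0.70 ± 0.06 in KO1 (edgeR adjusted p = 6.563e-06) and 0.01 ± 0.05 in KO2. COL4A6, its head-to-head partner on the X chromosome, measured 111, 104 and 96.1 in WT1, 76.0, 74.6 and 75.5 in KO1, 102, 96.2 and 108 in WT2, and 123, 122 and 118 in KO2. It fell in KO1 (−0.46 ± 0.06, edgeR adjusted p = 0.0001278) and rose in KO2 (0.24 ± 0.05, edgeR adjusted p = 0.00153), in both without overlap. The ratio of COL4A6 to COL4A5 was 0.718 to 0.812 in WT1, 0.859 to 0.940 in KO1, 0.779 to 0.803 in WT2 and 0.906 to 0.963 in KO2, above the controls in all 6 knockout libraries. These ratios are given without a test, since the smallest p-value of an exact permutation test of 3 values against 3 is 0.1.

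COL4A2, a main chain of the type IV network, fell in both knockouts, by 0.32 ± 0.05 on the log2 scale in KO1 (edgeR adjusted p = 0.0006997) and 0.28 ± 0.03 in KO2 (edgeR adjusted p = 5.917e-06). Its levels were 877, 852 and 796 in WT1 against 705, 635 and 681 in KO1, and 837, 825 and 828 in WT2 against 685, 695 and 681 in KO2. COL4A1, transcribed from the same start region in the other direction, fell by 0.20 ± 0.05 in KO1 (edgeR adjusted p = 0.01107), a call lost without WT1 replicate 1 (−0.15), and had 0.01 ± 0.03 in KO2. The ratio of COL4A2 to COL4A1 was 1.86 to 2.00 in WT1 and 1.71 to 1.81 in KO1, and 1.98 to 2.04 in WT2 and 1.63 to 1.68 in KO2, lower in all knockout libraries than in their controls. The 2 genes share 1422 bases on opposite strands (GRCh38), and whether the counting used strand is not given in the sources used here.

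COL7A1, the anchoring fibril collagen, rose in both knockouts. It measured 211, 183 and 176 in WT1 and 265, 245 and 247 in KO1, and 176, 172 and 194 in WT2 and 258, 237 and 227 in KO2. No knockout library overlapped its controls. COL7A1 rose by 0.41 ± 0.07 in KO1 (edgeR adjusted p = 0.000735) and by 0.41 ± 0.05 in KO2 (edgeR adjusted p = 9.321e-05), with a difference of 0.00 ± 0.10. COL17A1, the hemidesmosome collagen, fell in both, by 0.40 ± 0.05 in KO1 (edgeR adjusted p = 0.0001253) and 0.33 ± 0.04 in KO2 (edgeR adjusted p = 1.515e-05).

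COL18A1, a heparan sulfate proteoglycan of basement membranes, fell by 0.42 ± 0.06 in KO1 (edgeR adjusted p = 0.0003583) and rose by 0.16 ± 0.04 in KO2 (edgeR adjusted p = 0.008435). The 23 genes other than collagens tested within 1 Mb of it on chromosome 21 had medians of −0.38 and 0.42. COL4A4 fell in KO2 (−0.95 ± 0.29, edgeR adjusted p = 0.02023), a call lost without KO2 replicate 1 (−0.79) or WT2 replicate 3 (−0.79), and had −0.82 ± 0.34 in KO1, which did not pass. Of the fibrillar genes, COL1A1 fell (−0.53 ± 0.07, edgeR adjusted p = 0.0002497) and COL27A1 rose (0.45 ± 0.06, edgeR adjusted p = 0.0002979) in KO1, and they had −0.03 ± 0.05 and 0.09 ± 0.06 in KO2.

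Of the 23 genes tested in both knockouts, 3 rose in both (COL6A1, COL6A2 and COL7A1), 2 fell in both (COL4A2 and COL17A1), 3 had opposite calls (COL4A6, COL8A1 and COL18A1), 6 passed in KO1 alone, 1 in KO2 alone and 8 in neither. Of all 17445 genes tested in both, 9.44% rose in both, 8.28% fell in both, 4.16% had opposite calls, 14.8% passed in KO1 alone, 18.0% in KO2 alone and 45.3% in neither. Tested directly, the change differed between the knockouts for 11 of 25 genes (2 more positive and 9 more negative in KO1), where 23.3% of all genes passed (11.2% and 12.1%), and for 3 by at least 1 on the log2 scale, where 5.52% of all genes did. The count of more positive genes was 1 with no filter and without KO1 replicate 1 or 3, any KO2 replicate, WT1 replicate 1 or WT2 replicate 1 or 2. The call of COL6A1 was lost with no filter and without any of 9 libraries (0.33 to 0.43), and that of COL16A1 with no filter and without any of 8 (−1.50 to −1.29). The call of COL4A1 was lost without KO2 replicate 2 (−0.20). Between the 2 control groups, WT2 and WT1, 0 of 25 collagen genes passed with edgeR. Of all genes, 1.23% passed (0.578% higher and 0.654% lower, 0.0873% by at least 1 on the log2 scale), so 0 of 25 was near that share. DESeq2 gave 0 as well, where it called 690 of all 18335 genes. Before adjustment, 2 genes (COL8A2 and COL18A1) were under 0.05 in edgeR.

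**Figure D2:**
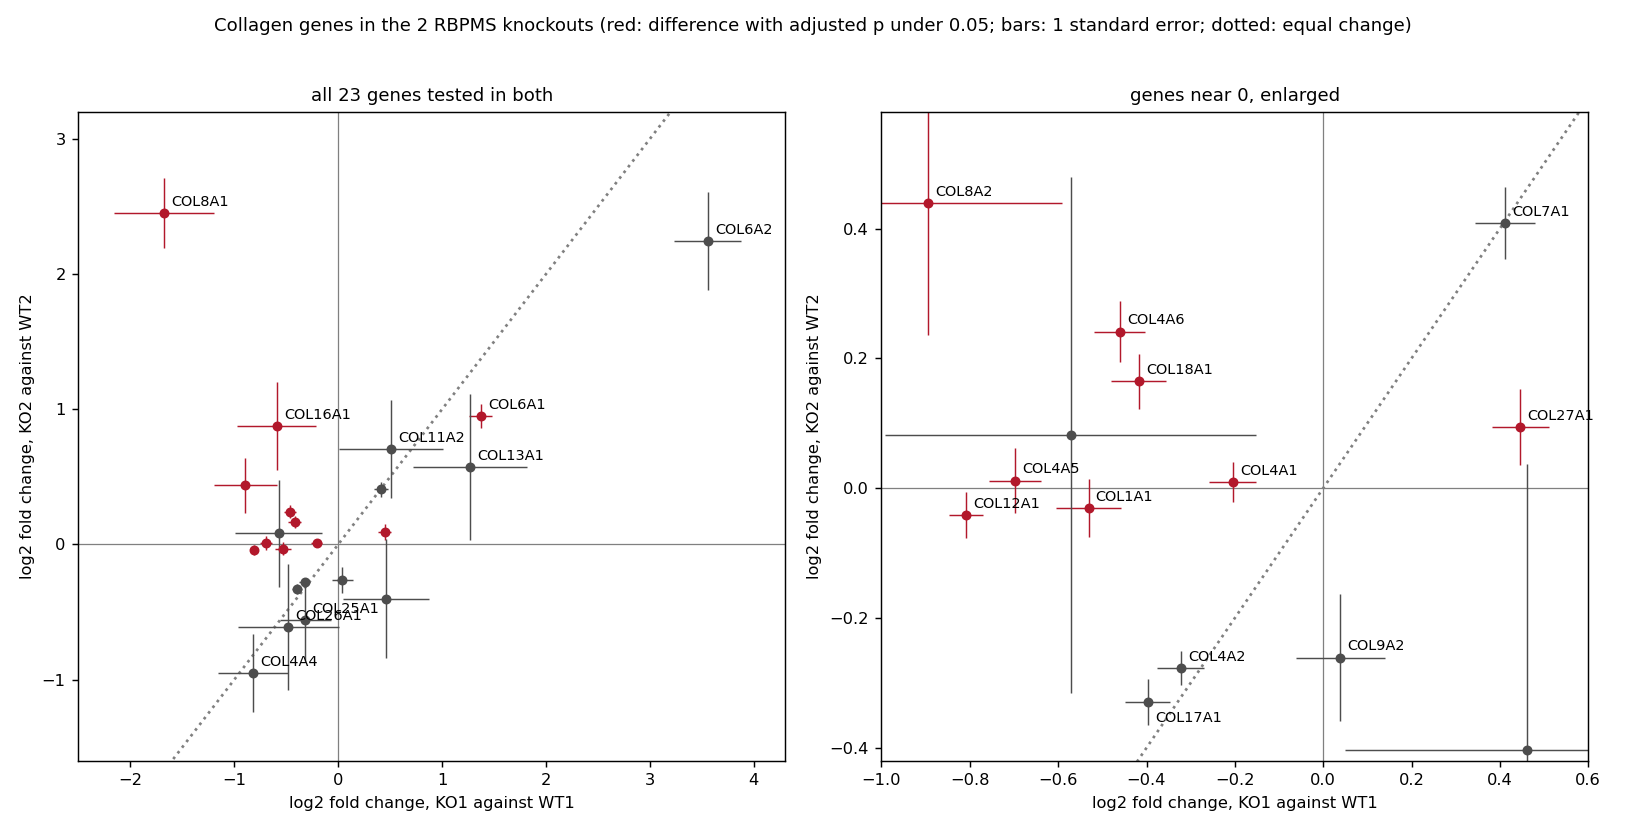
Log2 fold change of each collagen gene in KO1 against WT1 (x axis) and KO2 against WT2 (y axis), with bars of 1 standard error, all genes on the left and those near 0 enlarged on the right; red marks genes whose change differed between the knockouts. COL7A1, COL4A2 and COL17A1 lie near the dotted line of equal change, and COL8A1 lies at −1.68 and 2.45.

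Markers of several cell types moved in the same libraries. Of the 4 fibroblast markers tested in KO1, THY1 (−2.33), LUM and PDGFRA fell and PDGFRB rose, and PDPN was at 0 in all 12 libraries. In KO2, THY1 rose (0.85) and LUM fell (−2.93). Of the urothelial markers, GATA3 fell in both (−1.35 in KO1 and −0.76 in KO2), TP63 fell in KO1 (−0.56) and UPK1B in KO2 (−1.97). Of the endothelial markers, PECAM1 rose in both (1.44 and 1.46) and KDR in KO1, and the smooth muscle marker ACTA2 fell in KO2 (−0.55). PECAM1 measured 0.170 to 2.01 normalized CPM in the 12 libraries. KDR was at 0 in WT1 and 0.342 to 0.453 in KO1, and UPK1B measured 0.198 to 0.461 in WT2 and 0.0714 to 0.0797 in KO2. Of the 7 epithelial markers, 3 rose in KO1, and 3 rose and 2 fell in KO2. Of all genes tested, 36.1% passed in KO1 and 38.5% in KO2. The part of these genes in the collagen changes was not tested.

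Of the 34 genes of collagen synthesis, from prolyl and lysyl hydroxylation to propeptide cleavage and crosslinking, 32 were tested in KO1, where 14 rose and 3 fell, and 32 in KO2, where 18 rose and 3 fell, with medians of 0.19 and 0.24. Of all genes, 17.9% rose and 18.2% fell in KO1, and 19.3% rose and 19.2% fell in KO2. LOXL2, a crosslinking lysyl oxidase, rose by 1.26 ± 0.11 in KO1 (edgeR adjusted p = 7.207e-06) and 1.61 ± 0.05 in KO2 (edgeR adjusted p = 8.489e-10). LOXL4 rose by 1.40 ± 0.13 and TLL1, a procollagen C-proteinase, fell by 1.16 ± 0.13 in KO1. COLGALT1, which glycosylates hydroxylysine, rose by 0.66 ± 0.05, and the prolyl 3-hydroxylase gene P3H2 by 0.63 ± 0.09, in KO2. Of the 11 collagen receptor genes, 1 of 7 tested rose in KO1 (ITGA2, 0.31 ± 0.04) and 4 of 9 rose and 1 fell in KO2, with the all-gene shares just given. LAIR1, an inhibitory collagen receptor, was at 0 in all WT2 libraries and measured 1.27, 2.15 and 1.60 normalized CPM in KO2, the largest change of these 5. ITGB1 rose by 0.72 ± 0.03 and ITGA1 by 0.50 ± 0.09, and DDR1 fell (−0.26 ± 0.04).

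Overexpression of ANKRD10 isoforms left the sum of collagen CPM close to Vector, at 4839 ± 88.2 with ANKRD10-2 and 4755 ± 190 with ANKRD10-1 against 4979 ± 53.0 (SD, n = 3). COL12A1 fell with either isoform, more with ANKRD10-2, and COL16A1 fell with both. With ANKRD10-2, 8 of 33 collagen genes passed (3 higher and 5 lower), where 19.9% of all genes passed (10.7% higher and 9.25% lower), and the median was 0.01, with −0.01 for all genes. With ANKRD10-1, 2 of 32 passed, both lower, where 6.31% of all genes passed (3.50% higher and 2.81% lower), and the median was −0.08, with 0.00 for all genes. None of the 10 fibrillar genes tested passed in either comparison with edgeR, and 2 had an unadjusted p under 0.05 in each. No collagen gene reached a log2 fold change of 1 among those that passed, where 1.19% of all genes did with ANKRD10-2 and 0.391% with ANKRD10-1. Both comparisons share the Vector libraries. The count for ANKRD10-2 fell to 2 without Vector replicate 1 and to 3 without Vector replicate 2 or ANKRD10-2 replicate 3, and that for ANKRD10-1 to 0 or 1 when any library was left out.

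COL12A1 measured 683, 764 and 671 in Vector, 626, 636 and 619 with ANKRD10-1 and 473, 533 and 516 with ANKRD10-2. The groups did not overlap, in the order Vector, ANKRD10-1, ANKRD10-2. The log2 fold change was −0.47 ± 0.06 with ANKRD10-2 (edgeR adjusted p = 7.426e-05) and −0.17 ± 0.05 with ANKRD10-1 (edgeR adjusted p = 0.04904). The call with ANKRD10-1 was lost without any library but Vector replicate 3, at −0.19 to −0.11. ANKRD10-2 was lower than ANKRD10-1 by 0.30 ± 0.05 (edgeR adjusted p = 0.001073). The labels do not settle whether the isoform groups shared an RBPMS background.

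The other calls with ANKRD10-2 were small. COL13A1, a transmembrane collagen, rose by 0.38 ± 0.08, COL6A2 by 0.27 ± 0.09 and COL6A1 by 0.19 ± 0.06. COL8A1 fell by 0.57 ± 0.18, COL16A1 by 0.37 ± 0.11, COL4A5 by 0.19 ± 0.05 and COL4A1 by 0.14 ± 0.04. Of these, COL13A1 alone passed whichever library was left out. COL4A5 was lost without Vector replicate 1 (−0.17), and COL6A1, COL6A2, COL8A1, COL16A1 and COL4A1 were each lost without Vector replicate 1, Vector replicate 2 or ANKRD10-2 replicate 3 and without 1 or 2 further libraries. COL8A1 measured 2.41, 2.52 and 2.60 in Vector and 1.75, 1.91 and 1.44 with ANKRD10-2, without overlap. With ANKRD10-1 it measured 1.97, 1.74 and 1.55, a log2 fold change of −0.52 ± 0.17 that did not pass. COL16A1 fell by 0.41 ± 0.12 with ANKRD10-1, a call lost without any library but ANKRD10-1 replicate 1, at −0.43 to −0.31. Between the isoforms, 2 of 33 genes passed, COL12A1 and COL6A1 (0.22 ± 0.06), where 7.26% of all genes passed (4.15% higher and 3.1% lower, 0.359% by at least 1 on the log2 scale).

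Of the synthesis genes, 9 of 31 rose and 1 fell with ANKRD10-2, and 3 rose and 1 fell with ANKRD10-1, where of all genes 10.7% rose and 9.25% fell with ANKRD10-2 and 3.5% rose and 2.81% fell with ANKRD10-1. Those named by the rule were TLL2 (0.69 ± 0.20) and BMP1 (0.47 ± 0.13), which cleave procollagen, and LOXL3 (−0.40 ± 0.10) with ANKRD10-2, and the lysyl hydroxylase gene PLOD2 (−0.49 ± 0.04), the collagen chaperone gene SERPINH1 (0.33 ± 0.07) and MIA3 (0.17 ± 0.04), needed for export of procollagen, with ANKRD10-1. The collagen-binding integrin genes ITGA2 and ITGA1 fell with both, by 0.47 ± 0.06 and 0.31 ± 0.09 with ANKRD10-2 and by 0.27 ± 0.05 and 0.31 ± 0.08 with ANKRD10-1. The call of ITGA1 was lost without any library but Vector replicate 3 with ANKRD10-1 (−0.33 to −0.27) and without any of 3 libraries with ANKRD10-2 (−0.30 to −0.24). Those of TLL2 (0.50 to 0.69), BMP1 (0.36 to 0.45), LOXL3 (−0.35), MIA3 (0.15 to 0.18) and SERPINH1 (0.28 to 0.30) were lost without any of 3, 4, 1, 3 and 2 libraries. Of the 7 epithelial markers, 5 rose with ANKRD10-2 and 4 with ANKRD10-1, and CD68 fell with both (−0.34 and −0.44). Their part in the collagen changes was not tested.

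**Figure D3:**
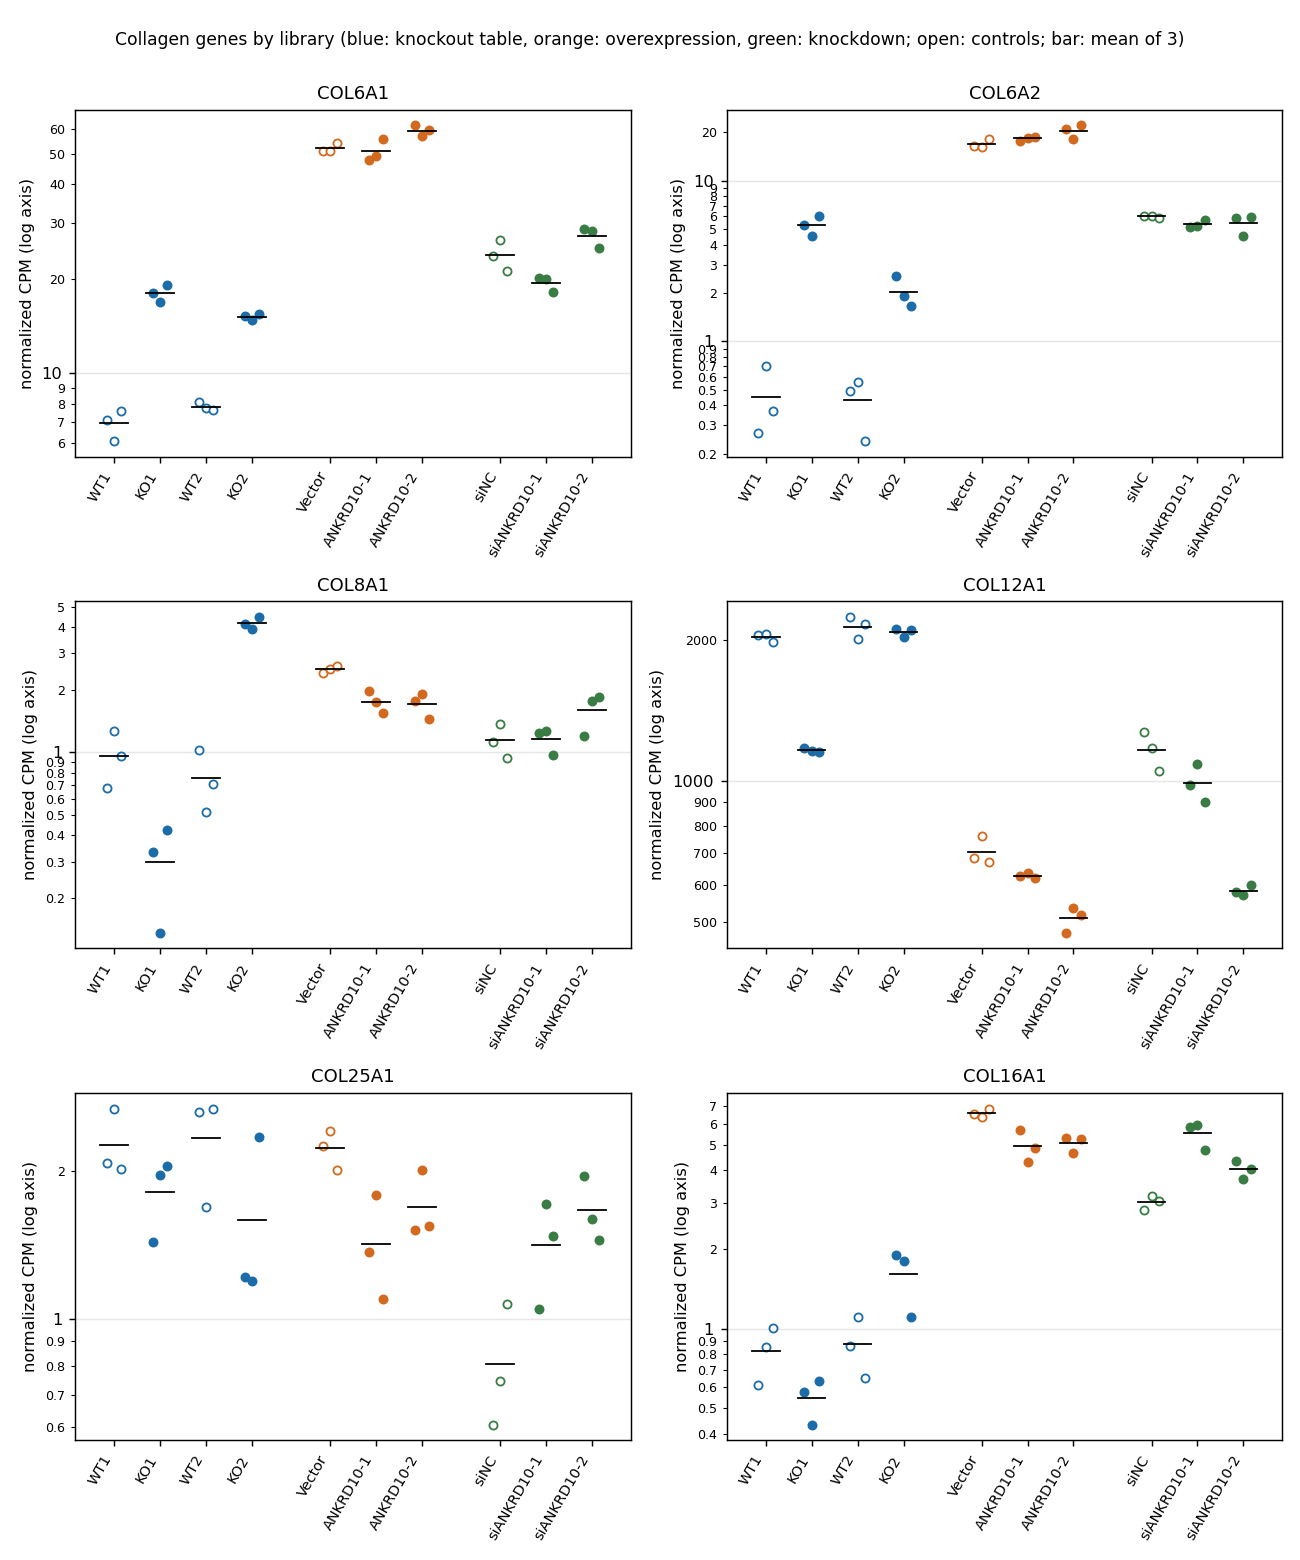
Normalized CPM (y axis, log scale) of 6 collagen genes in every library, by group (x axis); open points are controls and bars are means of 3 libraries. COL6A1 and COL6A2 lie above their controls in all knockout libraries, COL8A1 is low in KO1 and high in KO2, and COL12A1 is lowest in its table in KO1, ANKRD10-2 and siANKRD10-2.

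With siANKRD10-2, 16 collagen genes rose and 1 fell, the highest count among the 6 comparisons with a control. COL4A1, COL4A2, COL4A5, COL4A6, COL7A1 and COL18A1 of the basement membrane rose, and COL12A1 fell. The sum of collagen CPM was 4219 ± 156 with siANKRD10-2, 3608 ± 178 with siANKRD10-1 and 3470 ± 242 with siNC, and the basement membrane genes gave 74.1 to 75.2%, 62.02 to 63.61% and 54.9 to 56.4% of it. These were 17 of the 27 genes tested, where 36.3% of all genes passed (17.6% higher and 18.7% lower). Their median was 0.48, with 0.00 for all genes, and 3 passed at a change of 1 or more on the log2 scale, where 2.64% of all genes did. By class, 6 of 7 basement membrane genes, 5 of 8 fibrillar genes and 5 of 12 others rose, and 1 of the others fell. With siANKRD10-1, 7 of 27 passed (4 higher and 3 lower), where 10.6% of all genes passed (5.08% higher and 5.52% lower), the median was 0.18, and none passed at a change of 1 or more on the log2 scale, where 0.367% of all genes did. That count fell to 3 without siANKRD10-1 replicate 1 or siNC replicate 2, and to 4 without siNC replicate 1. The fall of ANKRD10 in counts per gene was alike with both siRNAs, as given above. Such counts do not show how far either isoform fell. Both comparisons share the siNC libraries.

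COL7A1 measured 749, 759 and 681 with siNC, 865, 870.4 and 877 with siANKRD10-1 and 1338, 1292 and 1192 with siANKRD10-2. The groups did not overlap. It rose by 0.80 ± 0.06 with siANKRD10-2 (edgeR adjusted p = 3.468e-11) and by 0.26 ± 0.06 with siANKRD10-1 (edgeR adjusted p = 0.005354).

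COL4A1 measured 330.3, 340.3 and 288 with siNC, 393, 432 and 368 with siANKRD10-1 and 605, 575 and 561 with siANKRD10-2, again without overlap. It rose by 0.86 ± 0.06 with siANKRD10-2 (edgeR adjusted p = 1.889e-11) and by 0.32 ± 0.07 with siANKRD10-1 (edgeR adjusted p = 0.005776). COL4A2 measured 736, 720.3 and 656 with siNC and 1081, 1023 and 1007 with siANKRD10-2, a rise of 0.56 ± 0.06 (edgeR adjusted p = 1.175e-08). With siANKRD10-1, COL4A2 had 0.18, which did not pass. It did pass there with no filter, all groups in the fit or the replicate block, and without siANKRD10-1 replicate 3. The ratio of COL4A2 to COL4A1 was 1.99 to 2.14 with siNC, 1.83 to 1.92 with siANKRD10-1 and 1.67 to 1.69 with siANKRD10-2. The 2 genes lie 571 and 365 kb from ANKRD10 on chromosome 13 (COL4A1 chr13:110148963-110307233, ANKRD10 chr13:110878540-110915069, GRCh38), and the 13 genes other than collagens tested within 1 Mb of COL4A1 had a median of −0.11 with siANKRD10-2.

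On the X chromosome, COL4A5 measured 60.6, 57.0 and 51.6 with siNC and 81.0, 77.4 and 76.7 with siANKRD10-2, and COL4A6 82.9, 86.6 and 77.3 against 130.4, 127 and 125. Neither gene overlapped between these groups. They rose by 0.48 ± 0.06 (edgeR adjusted p = 7.211e-07) and 0.63 ± 0.06 (edgeR adjusted p = 1.723e-09), and COL18A1 rose by 0.33 ± 0.06 (edgeR adjusted p = 0.0001653). COL4A4, at 0.503 to 1.06 normalized CPM with siNC, had 0.61 ± 0.32 and did not pass. With siANKRD10-1, COL4A5 had 0.02, COL4A6 0.19, COL18A1 0.16 and COL4A4 −0.82, and none of these passed. COL4A6 did pass there with no filter, all groups in the fit or the replicate block.

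**Figure D4:**
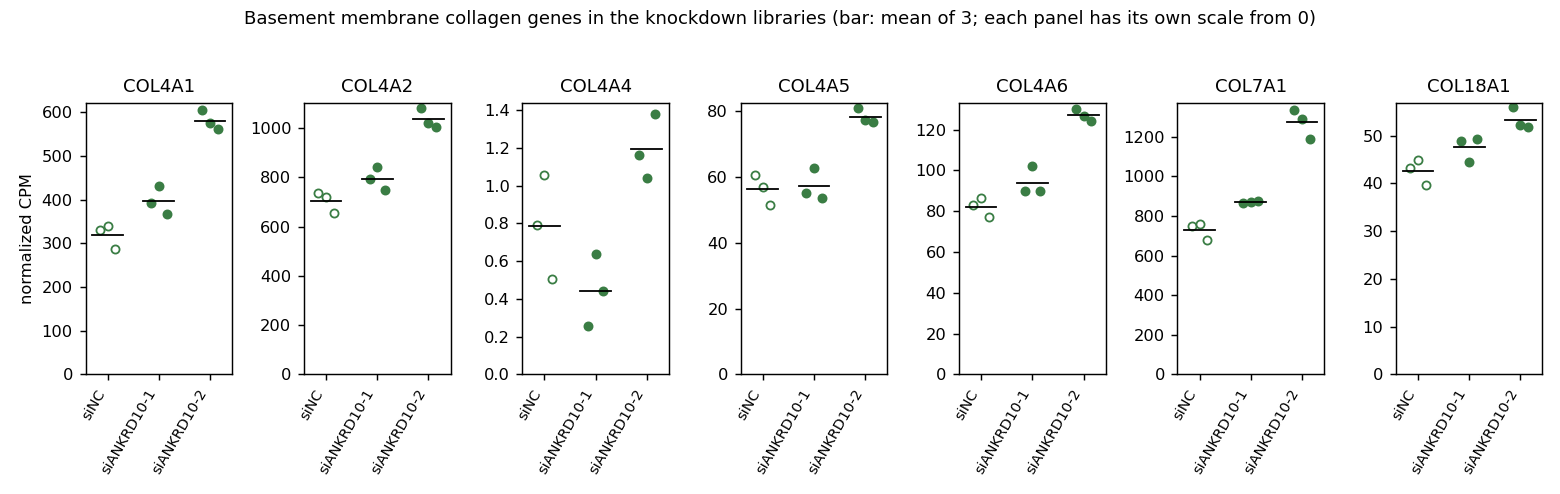
Normalized CPM (y axis, a separate scale from 0 in each panel) of the 7 basement membrane collagen genes tested in the knockdown libraries, by group (x axis); bars are means of 3 libraries. In all panels but that of COL4A4, the 3 siANKRD10-2 libraries lie above all siNC libraries.

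COL12A1 measured 1272, 1175 and 1049 with siNC, 980.3, 1085 and 900 with siANKRD10-1 and 578, 569 and 598 with siANKRD10-2. The siANKRD10-2 libraries lay apart, and those of siANKRD10-1 overlapped siNC. It fell with siANKRD10-2, at a log2 fold change of −1.0 ± 0.06 (edgeR adjusted p = 1.922e-12), and had −0.24 ± 0.07 with siANKRD10-1 (edgeR adjusted p = 0.04231). COL12A1 gave 13.2 to 14.7% of all collagen CPM with siANKRD10-2 and 32.8 to 34.8% with siNC. COL25A1, a transmembrane collagen, measured 0.608, 0.745 and 1.07 with siNC, 1.05, 1.72 and 1.48 with siANKRD10-1 and 1.95, 1.60 and 1.44 with siANKRD10-2. It rose by 1.04 ± 0.28 with siANKRD10-2 without overlap (edgeR adjusted p = 0.005229), and had 0.81 ± 0.30 with siANKRD10-1, which overlapped siNC and did not pass.

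Of the remaining genes, COL9A2 rose with both siRNAs (0.85 ± 0.07 with siANKRD10-2 and 0.31 ± 0.07 with siANKRD10-1), and COL16A1 did as well (0.42 ± 0.16 and 0.87 ± 0.15). COL16A1 was the only one that rose more with siANKRD10-1 among those that rose with both. COL17A1 rose by 0.44 ± 0.05 with siANKRD10-2 and fell by 0.19 ± 0.05 with siANKRD10-1, and COL6A1 fell by 0.29 ± 0.08 with siANKRD10-1. The siANKRD10-1 calls of COL6A1, COL12A1 and COL17A1 were lost without siANKRD10-1 replicate 1 or 3 or siNC replicate 1 or 2, at −0.32 to −0.22, −0.24 to −0.17 and −0.20 to −0.18, and that of COL9A2 without siANKRD10-1 replicate 1 (0.25) or siNC replicate 2 (0.32). The fibrillar genes that rose with siANKRD10-2 were COL1A1 (0.22 ± 0.06), COL27A1 (0.26 ± 0.06), COL11A2 (0.77 ± 0.13), COL5A2 (0.81 ± 0.29) and COL24A1 (1.47 ± 0.56), and COL13A1 rose by 0.71 ± 0.23. COL24A1 had only 12 to 28 counts per siANKRD10-2 library and 0 to 12 per siNC library, where 70.1 to 75.9% of counts of 1 to 20 were even. Its call was lost without siNC replicate 3 (0.90) or siANKRD10-2 replicate 1 (1.49) or 3 (1.18), and with DESeq2's test (DESeq2 adjusted p = 0.05705). That of COL5A2 was lost without siNC replicate 3 (0.69) or siANKRD10-2 replicate 1 (0.74) or 2 (0.66), and that of COL13A1 without siNC replicate 3 (0.52) or siANKRD10-2 replicate 1 (0.61). That of COL16A1 with siANKRD10-2 was lost without any library other than siANKRD10-2 replicate 2, at 0.36 to 0.46.

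Compared directly, 15 of 28 collagen genes differed between siANKRD10-2 and siANKRD10-1 (13 higher and 2 lower with siANKRD10-2), where 37.0% of all genes differed (18.2% higher and 18.8% lower), and 2 by at least 1 on the log2 scale, where 2.73% of all genes did. All 7 basement membrane genes tested were higher with siANKRD10-2, among them COL7A1 (0.55 ± 0.05), COL4A1 (0.55 ± 0.06), COL4A5 (0.46 ± 0.06), COL4A6 (0.44 ± 0.06), COL4A2 (0.39 ± 0.05), COL18A1 (0.17 ± 0.06) and COL4A4 (1.43 ± 0.35). COL12A1 (−0.76 ± 0.06) and COL16A1 (−0.44 ± 0.14) were lower. Whether the siRNA groups had the same RBPMS background is not settled by the labels. The call of COL18A1 was lost with the replicate block, with no filter and without any of 4 libraries (0.12 to 0.18), and that of COL16A1 without any of 3 (−0.41 to −0.39).

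Of 30 synthesis genes tested with siANKRD10-2, 5 rose and 11 fell, with a median of −0.02, where 17.6% of all genes rose and 18.7% fell. TLL1 rose by 1.35 ± 0.15, and LOXL4 (−0.87 ± 0.31) and P3H2 (−0.51 ± 0.12) fell. The call of LOXL4 was lost without siANKRD10-2 replicate 3 (−0.68) or siNC replicate 2 (−0.88) or 3 (−0.73). With siANKRD10-1, 8 of 31 rose and 0 fell with edgeR (3 fell at an unadjusted p under 0.05), where 5.08% of all genes rose and 5.52% fell. Among them were PCOLCE2 (0.90 ± 0.28), which enhances procollagen cleavage, TLL1 (0.60 ± 0.18) and P4HA2 (0.42 ± 0.06). The calls of PCOLCE2 and TLL1 were each lost without any of 5 libraries (0.73 to 0.99 and 0.43 to 0.64), and that of PCOLCE2 with all groups in the fit. Of the receptor genes, MRC2, an endocytic collagen receptor, rose by 0.50 ± 0.07 and LAIR1 (−1.31 ± 0.27) and ITGA2 (−0.39 ± 0.07) fell with siANKRD10-2, and ITGA2 (−0.33 ± 0.08) and DDR1 (−0.21 ± 0.05) fell with siANKRD10-1, calls lost without either of 2 libraries (−0.31 to −0.28) and without any of 4 (−0.21 to −0.19). The 7 epithelial markers all fell with siANKRD10-2, from a sum of 5280 to 5604 with siNC to 3228 to 3359, and 4 of 7 fell with siANKRD10-1. With siANKRD10-2, CD68 (−0.46), MYH11 (−1.09) and PECAM1 (−0.93) also fell and THY1 rose (0.76). The part of this in the collagen changes was not tested.

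**Figure D5:**
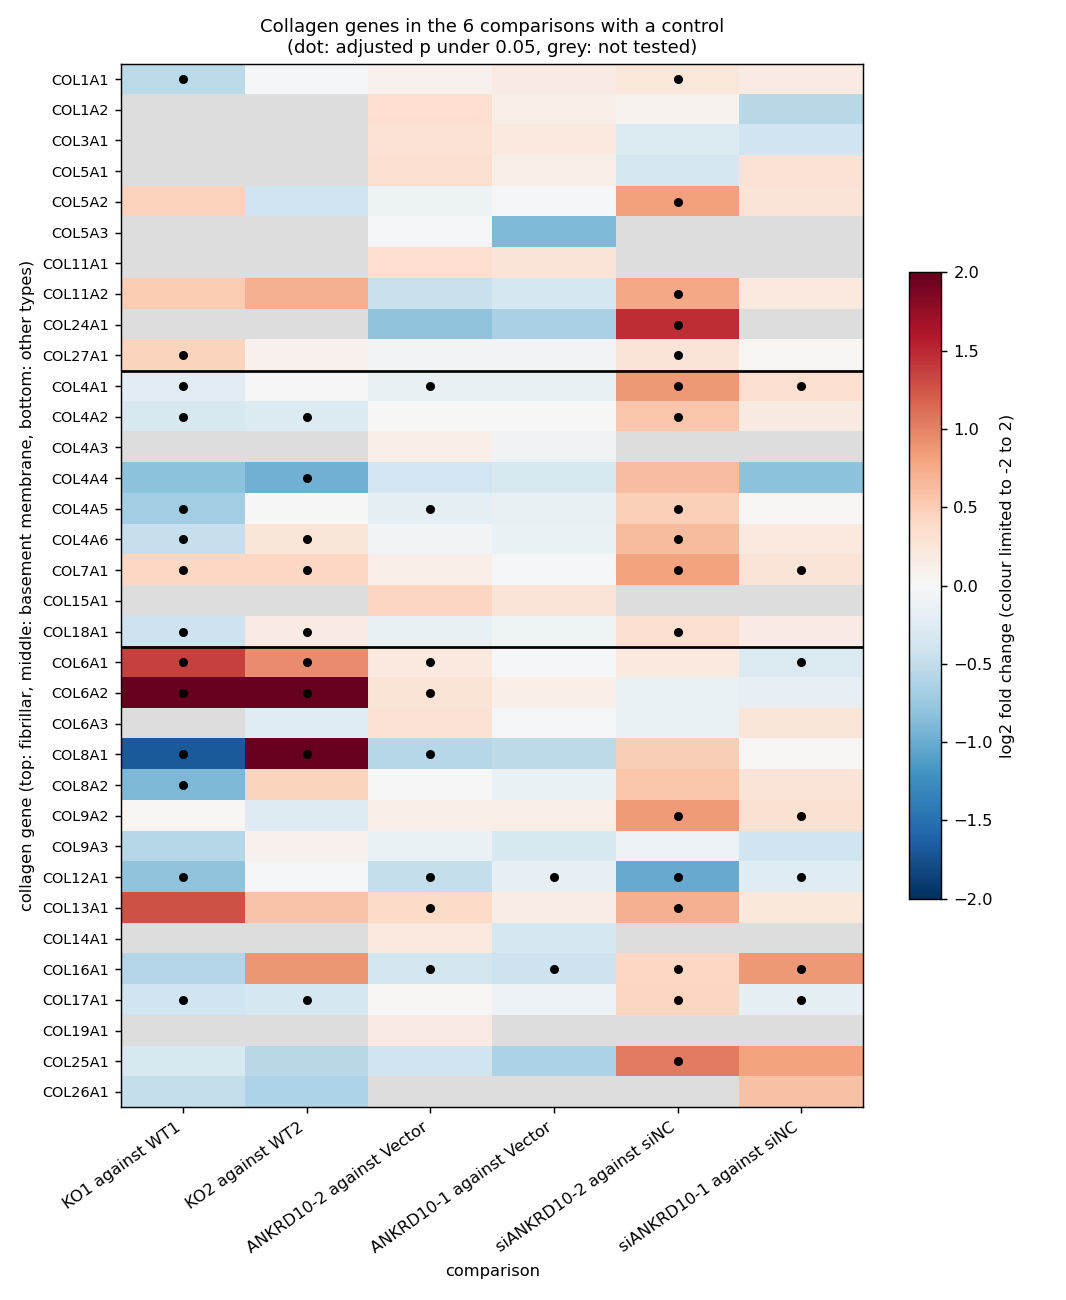
Log2 fold change (colour, limited to −2 to 2) of the 34 collagen genes tested (y axis, by class) in the 6 comparisons with a control (x axis); dots mark an adjusted p-value under 0.05 and grey marks genes not tested. The column of siANKRD10-2 against siNC holds 16 rises and 1 fall, and that of KO1 against WT1 holds 4 rises and 10 falls.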

How the data were processed

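Poly(A) RNA of 30 libraries of 5637 cells was sequenced, and the authors deposited raw counts per gene in 3 tables. Per the labels the processing notes name Trimmomatic 0.36, featureCounts (Subread 1.5.1) and GRCh38; the study's methods name HISAT2, StringTie and DESeq2, and whether counting used strand is not given in the sources used here. Groups came from the labels. Each comparison was fitted on its own groups with edgeR 4.0.16 (TMM, quasi-likelihood test, R 4.3.3), after a filter on low counts (filterByExpr, minimum count 10); p-values were adjusted by Benjamini and Hochberg over every gene tested, with a threshold of 0.05. The difference between the knockouts was fitted over their 12 libraries. The members and gene lists were chosen with earlier results of these data known. The rule for named genes gave levels in every library to collagen genes with a change of 1 or more on the log2 scale and a mean of at least 1 normalized CPM among those that passed against a control, and a log2 fold change to the other collagen genes that passed. Of the synthesis and receptor lists it took the 3 largest changes that passed per comparison with a control, if the mean level over the libraries compared was 1 normalized CPM or more. Further genes and levels were chosen after their values were seen. Exon lengths came from the deposited overexpression table. Gene positions and overlaps came from GENCODE release 29, and promoter windows from RefSeq.

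The main fits did not pair libraries by replicate number. Deviations of same-numbered libraries from their group means correlated at −0.0329 to 0.0786. Whether the numbers mark pairs is not settled by these values. The alternatives were DESeq2 1.42.0 size factors and test, no filter, all groups of a table in the fit, all 6 wild-type libraries as controls, a replicate block, and leaving out each library. The scripts were tested on simulated data. Depths are given with the results.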

Additional observations from a re-analysis of the deposited data

Results flagged for a closer look

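The change against the own control differed between KO1 and KO2 for 11 collagen genes, by edgeR's test of the difference itself. As KO1 minus KO2 on the log2 scale, COL8A1 differed by −4.13, COL16A1 by −1.47, COL8A2 by −1.34, COL12A1 by −0.77, COL4A5 by −0.71, COL4A6 by −0.70, COL18A1 by −0.58, COL1A1 by −0.50 and COL4A1 by −0.22. COL27A1 (0.35) and COL6A1 (0.42) differed in the other direction. The calls of COL6A1 and COL16A1 were lost with no filter on low counts and without any of 9 and 8 of the 12 libraries. The call of COL4A1 was lost without KO2 replicate 2 (−0.20). In the main fits, COL16A1 passed in neither knockout against its own controls. It passed in KO2 with DESeq2's size factors or test, all groups in the fit, the replicate block or all 6 WT libraries. It also passed there without KO2 replicate 3 or WT2 replicate 2, and these alternatives gave 0.87 to 1.09. It had a mean of 0.089 normalized CPM per kb in WT1 and 0.094 in WT2. The knockouts differ in sgRNA and in the expanded clone, which cannot be told apart. Groups of 3 libraries were not tested for libraries far from the others.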

How the results depend on the processing

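Of 86 calls over the 10 comparisons, 60 were kept under every alternative run and 0 changed direction. The 86 were the collagen gene calls and that of the synthesis gene COLGALT1 in KO2. DESeq2's size factors lost 0 of 86 and its test 3 (COL8A1 with ANKRD10-2, and COL16A1 and COL24A1 with siANKRD10-2). No filter lost 5 and the replicate block 1 of 86 (COL18A1 between the siRNAs, log2 fold change 0.17, edgeR adjusted p = 0.05551). The KO2 median log2 fold change was 0.15 with no filter, 0.016 with all groups in the fit and −0.019 with all 6 wild-type libraries, and the median of the difference −0.327 with no filter. With ANKRD10-1, 4 genes passed with no filter, all lower, and 1 with all groups in the fit, and the median was −0.052 with no filter. COL4A1 in KO2, which did not pass, was −0.0047 with no filter and −0.032 with all wild-type libraries, and COL4A5 −0.0032 and −0.022. Leaving out 1 library gave medians of −0.424 to −0.313 in KO1, −0.01 to 0.04 in KO2, −0.049 to 0.029 between the controls, −0.118 to −0.037 with ANKRD10-1, 0.413 to 0.487 with siANKRD10-2 and 0.097 to 0.192 with siANKRD10-1. It gave 2 to 7 calls with ANKRD10-2, 0 to 1 with ANKRD10-1, 1 to 2 between the isoforms and 3 to 8 with siANKRD10-1, and −0.0099 to 0.026 for COL4A1 and −0.020 to 0.062 for COL4A5 in KO2. The cause was not tested. At these depths 3 counts equal 0.0424 to 0.1042 normalized CPM.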
